A study of Zea mays with 19 samples.

Results

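Embryos of the late germinating maize line Yu537A after GA3 treatment were set against embryos of the early germinating line Yu82, both taken 53 h into germination. GA3 is a gibberellin, the hormone class that promotes germination in cereals. The comparison holds 6 of the 18 small RNA libraries of the study (19 samples with a degradome library): 3 of Yu537A with GA3 and 3 of Yu82. The libraries were chosen by their labels alone. Both inbred lines derive from the population Yuzong5, and each library came from the embryos of 5 seeds. The labels call the 3 libraries of a group biological replicates. The treated Yu537A seeds received 400 mg/L GA3. The treatment text speaks of GA3 for seeds of Yu537A without naming groups, while the design text names only the 53 h GA3 group as treated, and on this reading the remaining Yu537A groups count here as untreated. The early line has no GA3 group, and line and GA3 therefore cannot be told apart in this comparison. The untreated Yu537A libraries at 6 h, 53 h and 78 h and the Yu82 libraries at 6 h are used to place the differences found. They are also part of the statistical fit, which covers all 18 small RNA libraries, and so bear on every call.

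Plant miRNAs are cut from hairpin precursors by a Dicer enzyme, and the strand loaded into ARGONAUTE guides the cleavage of matching messenger RNAs. Several old families have known target classes in germinating embryos: miR159 limits GAMYB factors, which act downstream of gibberellin in cereal aleurone, miR160 and miR393 act on auxin response, and miR166 acts on leaf and meristem patterning. Another group, miR397, miR398, miR408 and the monocot family miR528, acts on transcripts of copper-containing proteins such as laccases, plantacyanins, ascorbate oxidases and superoxide dismutases. In Arabidopsis, the copper-responsive factor SPL7 activates several of these when copper is scarce.

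The sequences on which the results turn are printed first, in DNA letters as the table gives them and from 5′ to 3′, with the seed (bases 2 to 8) in capitals. The names are those of the table, where L and R with a number give bases added or lost at the 5′ or 3′ end against the reference entry, and PC marks a predicted candidate without a miRBase name. The sequences higher in the GA3-treated late line were:
zma-MIR397b-p5: tTGAGCGCagcgttgatgagc
zma-MIR397b-p3: tCACCAGCgctgcactcaatt
zma-miR397a-5p: tCATTGAGcgcagcgttgatg
zma-miR408a_L-1: tGCACTGCctcttccctggc
mtr-miR408-3p_L-1R+2: tGCACTGCctcttccctggctt
zma-MIR408a-p5: aCAGGGATgagacagagcatg
zma-miR528a-5p: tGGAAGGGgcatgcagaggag
zma-miR528a-3p_L+1: tCCTGTGCctgcctcttccatt
zma-miR393a-5p_R-1: tCCAAAGGgatcgcattgatc
PC-5p-5182_671: cTTCCGACtcaacacgattcgt

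The sequences lower in the GA3-treated late line follow, with zma-miR159a-3p and zma-miR319a-3p_R+1 shown because the lowered miR159 sequence is set against them:
zma-miR159c-3p_L-1R-1: tTGGATTGaagggagctcc
bdi-MIR444d-p5_1ss2GA: cAGCAAGCtagaggcagcaac
PC-5p-18068_190: tTAAATCTcctccgggattcc
PC-3p-12284_291: aGCCCCTTcaaccccttcggt
PC-3p-23456_139: aCACGGTGgcaagatcacgtc
zma-miR159a-3p: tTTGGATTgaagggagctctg
zma-miR319a-3p_R+1: tTGGACTGaagggtgctccct

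Among these, zma-miR408a_L-1 and mtr-miR408-3p_L-1R+2 share the seed GCACTGC, and the longer sequence begins with the whole of the shorter. No other pair shares a seed, since zma-miR159c-3p_L-1R-1 starts 1 base further in than the usual miR159 and zma-miR397a-5p starts 3 bases before zma-MIR397b-p5. The deposited precursor of zma-MIR397b is shown with its 5p and 3p products in capitals. It lies at chr5:84610591-84610674 on the minus strand (84 bases; no source used here names the genome build):
zma-MIR397b: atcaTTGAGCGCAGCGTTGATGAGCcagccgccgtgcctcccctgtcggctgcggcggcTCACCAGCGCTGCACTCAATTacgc
The full sequence of zma-miR397a-5p also occurs in this hairpin, sharing 18 bases with zma-MIR397b-p5, although the table lists it only for a precursor on chromosome 3. Its reads can therefore have come from either locus.

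The GA3-treated late libraries held 230729, 464863 and 440986 counts, against 124310, 170516 and 42959 in the early libraries. The depths of the groups did not overlap, so depth cannot be told apart from the group. Between 212 and 291 sequences were listed in a GA3 library, against 130 to 199 in an early library. The table's low end limits what a 0 means, since the smallest listed count over the candidates was 4, and a sequence at 0 was not shown to be absent. Levels below are CPM, counts scaled to a common TMM library size, and fold changes are the late line with GA3 over the early line. As these are whole embryos, fewer cells of a type and less RNA per cell cannot be told apart. No embryo-defining miRNA was on the lists, so the tissue label was not checked. As markers of another tissue, families with triggers of phased siRNAs known from anthers were taken by family number. Of their members, 3 of 5 were listed in the GA3 libraries and 4 of 5 in the early libraries. Together they held between 0.0139% and 0.0353% of counts with GA3, against 0.0809% to 0.219% in the early line, and their part in the results was not tested. The most abundant member, osa-MIR2118e-p3_2ss13TA19CT, is a hairpin sequence of 19 bases that was not shown to be a trigger. These shares therefore need not measure anther triggers.

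Of 223 sequences tested by the edgeR quasi-likelihood test, 10 were higher and 5 lower in the GA3-treated late line (adjusted p under 0.05), which is 6.73% of those tested. DESeq2 called 22 higher and 8 lower and limma voom 34 and 14. Of the 10 higher sequences, 8 belong to 3 families of the copper and redox list, miR397, miR408 and miR528. The others were a miR393 sequence and a candidate. The lower ones were a miR159 sequence, a miR444 hairpin sequence and 3 candidates. Higher calls were 4.48% and lower calls 2.24% of the 223, and an unadjusted p under 0.05 was reached by 66, or 29.6%. All 3 GA3 libraries lay above all early ones for 51 sequences and below them for 32, together 37.2%.

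**Figure D1:**
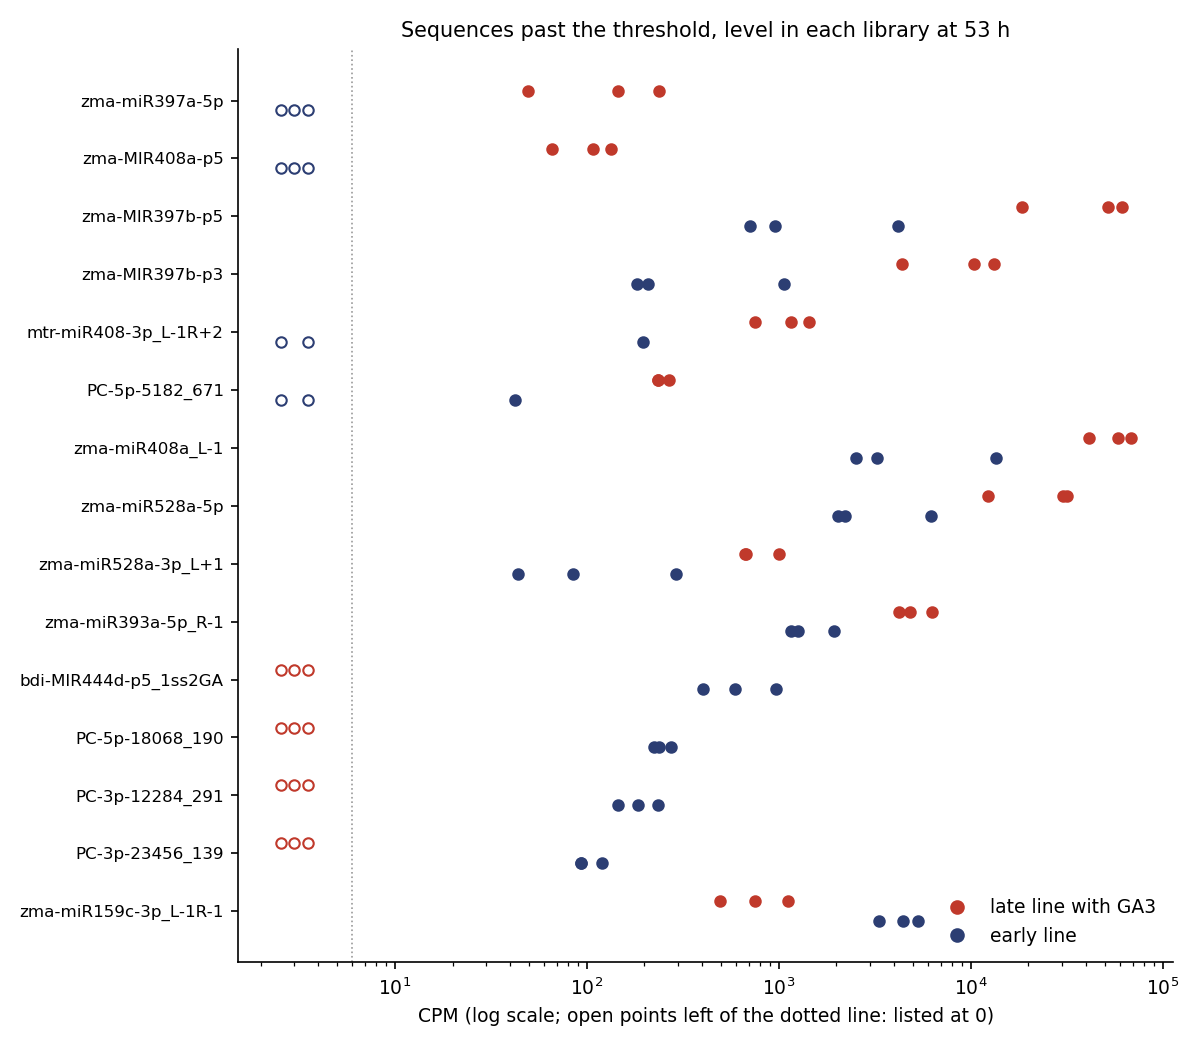
Level of the 15 sequences past the threshold in each library at 53 h, in CPM on a log axis, with the 3 late libraries with GA3 in red above the 3 early libraries in blue, and open points for libraries in which a sequence is listed at 0. In all 15 rows the red and blue points do not overlap, and bdi-MIR444d-p5_1ss2GA and 3 candidates are listed at 0 in every GA3 library.

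miR397 had the largest log2 fold change of the 4 called families. zma-MIR397b-p5, the strand that targets laccases, copper enzymes of lignin formation, stood at 18428, 52141 and 61791 CPM in the GA3-treated late line and at 708, 4170 and 952 CPM in the early line. Every GA3 library was above every early one, and replicate 2 was the highest early library. The log2 fold change was 4.50 (SE 0.72, edgeR adjusted p = 0.0013), and 5.82 without early replicate 2. The opposite strand of the same hairpin, zma-MIR397b-p3, also rose, with 4367, 10428 and 13200 CPM with GA3 against 183, 1066 and 208 CPM for the early line (log2 fold change 4.25, SE 0.74, edgeR adjusted p = 0.00136, and 5.64 without early replicate 2). zma-miR397a-5p had 12, 69 and 75 counts with GA3 and was listed at 0 in the 3 early libraries. Set against 4 counts per early library it was at least 5.35-fold higher (edgeR adjusted p = 0.00428). It was at 0 in the early line at 6 h as well. It thus passed the filter on low counts only through late-line libraries, which fixed its direction. As a family, miR397 had a log2 fold change of 4.24 (SE 0.66, edgeR adjusted p = 0.000256), and of 5.55 without early replicate 2.

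miR408, a family known to target plantacyanins and laccases, was higher in its main sequence and in a longer form of it. zma-miR408a_L-1 stood at 58664, 41328 and 68344 CPM with GA3 and at 2537, 13580 and 3239 CPM in the early line. The groups did not overlap, and early replicate 2 again lay above the other early libraries. The log2 fold change was 3.12 (SE 0.76, edgeR adjusted p = 0.0151). mtr-miR408-3p_L-1R+2, which adds 2 bases at the 3′ end, had 347, 355 and 366 counts with GA3 and 0, 42 and 0 counts for the early line (log2 fold change 3.99, SE 1.07, edgeR adjusted p = 0.0261). Its early level rests on replicate 2, without which all early libraries stand at 0. It lost its call without any of the 5 other libraries (log2 fold change 3.44 to 4.08, adjusted p 0.0637 to 0.14), with RLE size factors (adjusted p = 0.0553), with library totals alone (0.0578) and with the compared groups alone (0.065). A still longer form of 23 bases, gma-miR408a-3p_L-1R+3, had 33, 33 and 70 counts with GA3 and 0 in each early library, and did not pass the threshold (edgeR adjusted p = 0.0859). The opposite strand zma-MIR408a-p5, with 16, 63 and 34 counts with GA3 and none listed in the early line, was at least 3.79-fold higher (edgeR adjusted p = 0.00639). It too passed the filter on low counts only through late-line libraries, which fixed its direction.

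miR528, a family of monocots that targets copper proteins such as ascorbate oxidase in rice, was higher on both strands. zma-miR528a-5p stood at 12316, 31921 and 30329 CPM with GA3 and at 2045, 6217 and 2210 CPM in the early line. The lowest GA3 library was above the highest early one. Its log2 fold change was 2.83 (SE 0.63, edgeR adjusted p = 0.00887), and that of zma-miR528a-3p_L+1 was 2.45 (SE 0.63, edgeR adjusted p = 0.02). miR398, whose main target class is copper/zinc superoxide dismutase, did not pass: zma-miR398a-3p had 3499, 4497 and 5737 CPM with GA3 and 610, 2925 and 875 CPM for the early line (log2 fold change 1.64, SE 0.56, edgeR adjusted p = 0.0859).

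In the copper and redox list as a whole, 8 of 15 tested sequences were higher and 0 lower by edgeR, where 4.48% of all tested sequences were higher. The list was chosen with earlier results of these data known. Its 8 sequences are also among the 10 that make up the 4.48%, so the 2 rates are not independent. Unadjusted, 13 were higher and 0 lower at p under 0.05, and neither DESeq2 nor limma voom called a member lower (0 each). At 53 h, 5 of the 15 were at 0 in every early library and so could not be lower. Among them, zma-miR397a-5p, zma-MIR408a-p5, gma-miR408a-3p_L-1R+3 and ppt-miR408b_R+1_2ss19GT20CT were at 0 in the early line at 6 h as well. These entered only through late-line libraries and are among the 13, and the first 2 are among the 8. The list's median was 3.99 on the log2 scale, or 2.42 with sequences listed at 0 in a whole group placed at their bound, beside 0.26 over all sequences. The 15 are not independent, since strands and length forms of a precursor share a source. The count moved to between 4 and 10 when a library was left out: it was 4 without GA3 replicate 2 or 3 or without early replicate 1 or 3, and 10 without early replicate 2. Without early replicate 1 the main sequences stood at log2 2.77 for zma-miR408a_L-1 (edgeR adjusted p = 0.113) and 2.60 for zma-miR528a-5p (edgeR adjusted p = 0.0751), and without early replicate 3 at 2.80 (adjusted p = 0.125) and 2.65 (adjusted p = 0.101). Without early replicate 2 they stood at 4.39 and 3.63, and zma-miR528a-3p_L+1 at 3.58. With library totals alone zma-miR408a_L-1 stood at 2.43 and zma-miR528a-5p at 2.07 (adjusted p = 0.0549 each) and zma-miR528a-3p_L+1 at 1.76 (adjusted p = 0.0837). zma-miR528a-3p_L+1 also missed the threshold with RLE size factors (adjusted p = 0.0553), and zma-miR408a_L-1 without the filter on low counts (adjusted p = 0.103). zma-MIR397b-p5 and zma-MIR397b-p3 passed in all 6 fits that left out a library. So did zma-miR397a-5p and zma-MIR408a-p5, but both were at 0 in every early library, and for them this is no separate support.

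**Figure D2:**
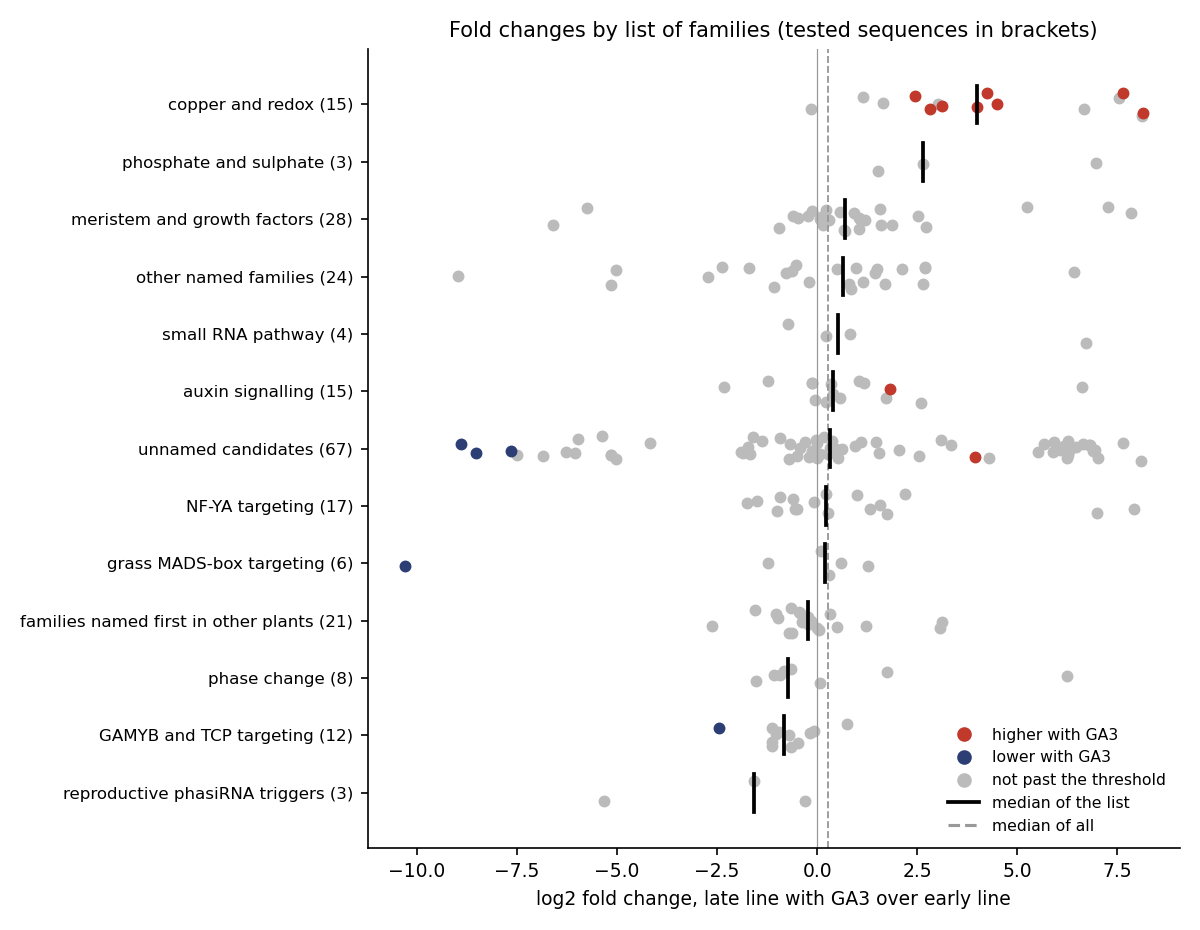
Each point is a tested sequence, placed by its log2 fold change (late line with GA3 over early line) in its list of families, red where higher, blue where lower and grey where not past the threshold, with black bars at list medians and a dashed line at the median of all sequences. The copper and redox list has its median at 3.99 and 8 of 15 sequences past the threshold, while all sequences have theirs at 0.26.

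By summed families, 4 of 48 were higher and 0 lower by the edgeR test, which is 8.33% of the families tested. At an unadjusted p under 0.05, 9 were higher and 5 lower, DESeq2 called 4 higher and 3 lower, and limma voom 4 and 2. Beside miR397, the called families were miR408 (log2 fold change 2.99, SE 0.82, edgeR adjusted p = 0.0216), miR528 (2.59, SE 0.66, adjusted p = 0.0169) and miR393 (1.66, SE 0.41, adjusted p = 0.0169). Without early replicate 1, miR408 stood at 2.54 (adjusted p = 0.139), miR528 at 2.32 (adjusted p = 0.139) and miR393 at 1.47 (adjusted p = 0.101), and only miR397 passed. Without early replicate 3 these families stood at 2.59, 2.30 and 1.53, and again only miR397 passed. Without early replicate 2, miR408 stood at 4.23 and miR528 at 3.41.

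Of the auxin families, miR393, which limits the TIR1/AFB auxin receptors, was the one with a sequence past the threshold. zma-miR393a-5p_R-1 stood at 4260, 4822 and 6310 CPM with GA3 and at 1163, 1935 and 1258 CPM in the early line. The groups did not overlap, with the lowest GA3 library above the highest early one. The log2 fold change was 1.82 (SE 0.51, edgeR adjusted p = 0.0359). It was 1.72 without early replicate 1 (adjusted p = 0.183), 1.75 without early replicate 3 (adjusted p = 0.133), 1.69 without GA3 replicate 2 (adjusted p = 0.0637) and 1.67 without GA3 replicate 3 (adjusted p = 0.0831). With library totals alone it was 0.97 (adjusted p = 0.11), and that of the miR393 family 1.02 (adjusted p = 0.0635). zma-miR393a-5p_R-1 also lost its call in a fit with a block for replicate number. The opposite strand zma-miR393a-3p_L-1 had 76, 186 and 142 counts with GA3 and 15, 24 and 0 counts for the early line (log2 fold change 2.59, SE 0.90, edgeR adjusted p = 0.0859). Of 15 tested sequences of miR160, miR167, miR390 and miR393, 1 was higher and 0 lower by edgeR. Over all 223 tested, 4.48% were higher and 2.24% lower. The median log2 fold change of the 15 was 0.39, beside 0.26 over all. At an unadjusted p under 0.05, 3 of the 15 were higher and 1 lower, beside 41 and 25 over all 223. These counts are no result about the auxin families as a set. DESeq2 as well as limma voom called 2 of the 15 higher and 0 lower. zma-miR160a-5p, which targets auxin response factors, stood at 21669 ± 5293 CPM with GA3 and 22689 ± 1771 CPM for the early line (SD, n = 3 each).

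A shortened miR159 was the most abundant of the lower sequences. zma-miR159c-3p_L-1R-1, a form of 19 bases, stood at 1125, 496 and 755 CPM in the GA3-treated late line and at 4470, 3315 and 5296 CPM in the early line. Every GA3 library was below every early one. The log2 fold change was -2.46 (SE 0.47, edgeR adjusted p = 0.00266), and it passed in all 18 alternative fits. The more abundant zma-miR159a-3p had 11460, 5619 and 7030 CPM with GA3 and 16557, 9537 and 26569 CPM in the early line. Those groups overlapped, and its log2 fold change of -1.13 (SE 0.50) did not pass (edgeR adjusted p = 0.152). Of 12 tested sequences of miR159 and miR319, 1 was lower and 0 higher by edgeR, and 11 had a negative fold change, with a median log2 value of -0.83. Over all 223 tested, 2.24% were lower, 4.48% were higher and 96 had a negative fold change. The 12 are not independent, since strands and length forms of a precursor share a source. At an unadjusted p under 0.05, 3 of the 12 were lower and 0 higher, beside 25 and 41 over all 223. DESeq2 as well as limma voom called 2 of the 12 lower and 0 higher. With library totals alone the median of all sequences shifted to -0.54, and that of these 12 to -1.80. The positive one was zma-miR319a-3p_R+1, which targets TCP factors.

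For miR319 both strands were measured, and neither passed the threshold. zma-miR319a-3p_R+1 stood at 48147, 59189 and 69754 CPM with GA3 and at 35905, 45891 and 23888 CPM for the early line (log2 fold change 0.74, SE 0.40, edgeR adjusted p = 0.212). With library totals alone that fold change was -0.08. The opposite strand zma-MIR319b-p5 lay the other way, with 1220, 1455 and 1156 CPM with GA3 against 2950, 2860 and 2506 CPM for the early line (log2 fold change -1.12, SE 0.39, edgeR adjusted p = 0.0859). For the 5p sequence zma-MIR319a-p5 the groups overlapped, with 918, 662 and 634 CPM with GA3 and 1477, 1240 and 897 CPM in the early line. Its log2 fold change was -0.71 (SE 0.53, edgeR adjusted p = 0.403). Because both strands come from the same library, the share of 5p sequences in all miR319 counts does not depend on the scaling between libraries. This share was 4.25%, 3.45% and 2.50% with GA3 and 11.0%, 8.20% and 12.5% in the early line. The groups did not overlap, and the exact permutation test (two-sided) gave p = 0.1, the smallest it allows with 3 libraries a group, or 0.383 adjusted over the 23 families compared. The libraries did not overlap in 4 of the 23 families, 17.4%. In other groups of the study the miR319 5p share ran from 1.10% to 1.42% in the late line at 6 h, from 2.04% to 2.23% in the untreated late line at 53 h, from 2.05% to 6.46% in it at 78 h and from 5.72% to 7.45% in the early line at 6 h. The late line at 78 h thus overlapped the early line at 6 h. When a sequence on several precursor entries was taken by a single entry, the difference in means was -12.4 percentage points in place of -7.15, with the same sign.

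**Figure D3:**
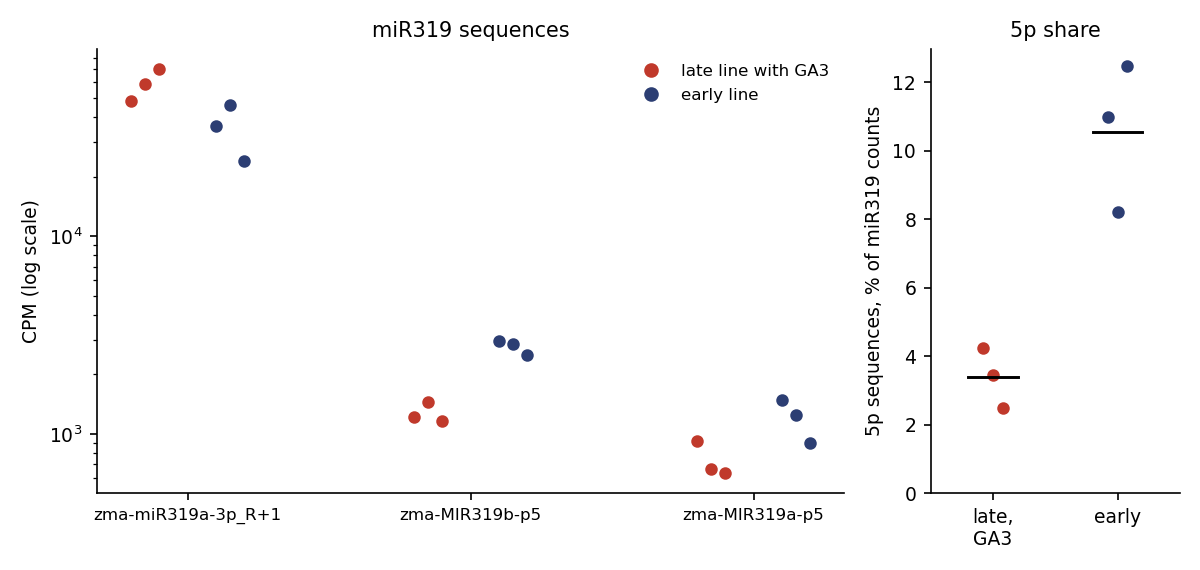
Left, level of 3 miR319 sequences in each library at 53 h, in CPM on a log axis; right, the share of 5p sequences in all miR319 counts of each library, with black bars at the means. Red points are the late line with GA3 and blue points the early line, and the 5p share lies between 2.50% and 4.25% with GA3 and between 8.20% and 12.5% in the early line.

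A further 4 sequences were listed in the early line and at 0 in every GA3 library. bdi-MIR444d-p5_1ss2GA, a 5p hairpin sequence of the grass family miR444 whose main strand targets MADS-box factors, had 0 counts in each GA3 library and 86, 206 and 54 counts in the early libraries, and was at least 51.9-fold lower (edgeR adjusted p = 0.00136). The candidates PC-5p-18068_190 (51, 48 and 25 early counts), PC-3p-12284_291 (31, 50 and 17) and PC-3p-23456_139 (20, 20 and 11) were at 0 in the GA3-treated late line, which makes the first at least 19.5-fold and the last at least 8.16-fold lower. Their edgeR adjusted p-values were 0.02, 0.0151 and 0.047. All 4 were also at 0 in the 9 other libraries of the late line and were listed in all 3 early libraries at 6 h. They therefore passed the filter on low counts only through early-line libraries, which fixed their direction here. The p-values are no separate support for that direction. PC-3p-23456_139 lost its call without any of 5 libraries (all but early replicate 2, adjusted p between 0.0875 and 0.126) and without the filter on low counts (0.106), PC-5p-18068_190 without GA3 replicate 2 or 3 or early replicate 1 or 3 (0.0594 to 0.0751), and PC-3p-12284_291 without GA3 replicate 3 (an adjusted p just above 0.05). PC-3p-23456_139 and PC-5p-18068_190 also lost their calls in a fit with a block for replicate number.

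The main miR444 strand, zma-miR444a, was listed in every library and stood at 46919, 46528 and 67115 CPM with GA3 and 53526, 64726 and 32314 CPM in the early line. The fold change of zma-miR444a was 0.09 (SE 0.39, edgeR adjusted p = 0.935), and -0.74 with library totals alone (adjusted p = 0.045), so that no direction can be given for it. The candidate PC-5p-5182_671 was the one candidate that was higher, with 57, 111 and 84 counts with GA3 and 0, 9 and 0 counts for the early line (log2 fold change 3.95, SE 1.06, edgeR adjusted p = 0.0261). It was also listed in the early line at 6 h, at 34, 26 and 42 counts. Its call was lost without GA3 replicate 2 or 3 or early replicate 1 or 3 (log2 fold change 3.39 to 3.95, adjusted p 0.0637 to 0.125) and with the compared groups alone (adjusted p = 0.0809).

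Of the 529 sequences, 335 were listed in any GA3 library and 242 in any early library at 53 h. Among them, 29 were listed in all 3 GA3 libraries and in no early library, and 6 in all 3 early libraries and in no GA3 library. With every library thinned to 42959 counts, the total of the shallowest, the numbers were 17 and 8. Of the 29, 18 were candidates and 1 was in none of the 9 other late-line libraries. All 6 of the early-only sequences were in none of these late-line libraries. In the early line at 6 h, 15 of the 29 were listed in no library and 4 in all 3. Of the 6, 4 were listed in all 3.

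The lists not yet described are given by their medians, beside 0.26 over all sequences, and held no edgeR call except where one is given. DESeq2 called 3 higher on the meristem list and 1 higher each for miR169 and phosphate and sulphate. It called 1 lower among families named first in other plants. limma voom called 3 higher and 1 lower on the meristem list and 1 lower of other named families. It called 1 higher each for miR169, the small RNA pathway and families named first in other plants. The 28 tested sequences of the meristem list (miR164, miR166, miR171, miR394 and miR396) had a median log2 fold change of 0.69, the 17 of miR169, which targets NF-YA factors, 0.23, and the 8 of the phase change families miR156, miR529 and miR172 -0.74. The 3 tested sequences of the phosphate and sulphate list had a median log2 fold change of 2.64 (1.51 with a sequence listed at 0 in a whole group at its bound). The 3 of the families taken for anther triggers had -1.57. The medians were 0.52 for the small RNA pathway list (4 tested), -0.24 for the 21 of families named first in other plants and 0.64 for the 24 of other named families. Of the 6 sequences of miR444, 1 was lower (median 0.19), and of the 67 candidates 1 was higher and 3 were lower (median 0.31). For the candidates DESeq2 called 5 higher and 3 lower, and limma voom 13 and 8. zma-miR166a-3p, the most abundant sequence, stood at 590226, 567818 and 890998 CPM with GA3 and 341678, 507202 and 226121 CPM for the early line (log2 fold change 0.93, SE 0.41, edgeR adjusted p = 0.152). zma-miR396a-5p, which targets growth-regulating factors, stood at 21122 ± 10092 CPM with GA3 and 6934 ± 1168 CPM for the early line (SD, n = 3 each; log2 fold change 1.61, edgeR adjusted p = 0.174). zma-miR827-3p, linked to phosphate transport, was at 5799 ± 1493 CPM with GA3 and 2032 ± 1535 CPM for the early line (log2 fold change 1.51, adjusted p = 0.163). Of the anther triggers, zma-miR2118b had 0, 8 and 0 counts with GA3 and 54, 56 and 25 for the early line (log2 fold change -5.33, SE 1.81, edgeR adjusted p = 0.0882). DESeq2 and limma voom called it lower (adjusted p = 0.0191 and 3.17e-05).

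Shares of counts need no scaling between libraries, but a large family pushes down the shares of the rest. miR397 held 2.40%, 6.37% and 5.36% of counts with GA3 and 0.153%, 0.654% and 0.247% in the early line. miR408 held 5.20% ± 1.03 with GA3 and 0.948% ± 0.681 in the early line, and miR528 2.31% ± 0.977 and 0.554% ± 0.236 (SD, n = 3 each). On the other side, miR444 held 6.76%, 6.18% and 6.26% with GA3 against 11.5%, 10.2% and 9.67% in the early line, miR159 1.09% ± 0.452 against 4.77% ± 2.98, and miR160 2.64%, 1.66% and 1.90% against 3.84%, 3.24% and 4.93%. For these 6 of the 11 families compared (54.5%) the libraries did not overlap, each with an exact permutation p of 0.1 (two-sided), the smallest possible here, and 0.183 adjusted over the 11. miR166 held 62.0% ± 3.05 with GA3 and 58.3% ± 7.71 in the early line (exact permutation p = 0.7). None of the 3 lower shares was matched by a call in the TMM-scaled fits, where the family log2 fold changes were -1.32 for miR159 (SE 0.49, edgeR adjusted p = 0.123), -0.09 for miR444 (SE 0.29) and -0.25 for miR160 (SE 0.34). In the untreated late line at 53 h the mean shares were 6.17% for miR397, 4.94% for miR408 and 2.33% for miR528. There miR444 held 7.22%, miR159 0.681% and miR160 1.76%. A difference of these shares between GA3 and untreated late line was not tested.

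**Figure D4:**
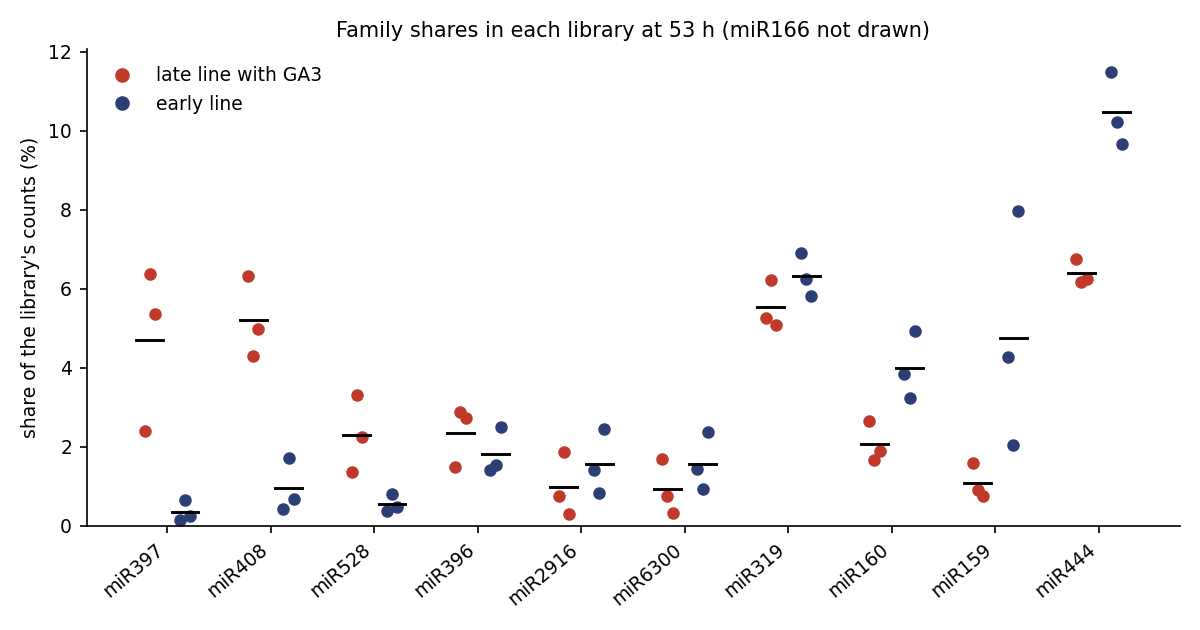
Share of each library's counts held by 10 families at 53 h, in percent, with the 3 late libraries with GA3 in red, the 3 early libraries in blue and black bars at the means. miR397, miR408 and miR528 lie higher in the late line with GA3, and miR160, miR159 and miR444 lie higher in the early line, with no overlap for these 6. The untreated late line is not drawn.

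Shares by sequence length were compared next. Sequences of 20 bases, the length of zma-miR408a_L-1, held 7.46% ± 0.696 of counts with GA3 and 4.25% ± 0.595 in the early line (SD, n = 3 each). Those of 19 bases, the length of zma-miR159c-3p_L-1R-1, held 0.373% ± 0.106 and 1.32% ± 0.675, and those of 23 bases 0.343% ± 0.104 and 0.898% ± 0.414. The groups did not overlap for these 3 of 8 lengths (37.5%), each with an exact permutation p of 0.1 and an adjusted p of 0.267. Sequences of 21 bases held 89.3% ± 1.70 with GA3 and 89.5% ± 3.26 in the early line. The mean share of sequences of 20 bases was 3.21 percentage points higher with GA3. That of miR408, most of whose counts are zma-miR408a_L-1, was 4.25 points higher. The difference for 20 bases is thus not separate from miR408, and no shift in length apart from it is shown.

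Whether these differences depend on GA3 was asked by setting the same GA3 libraries against the untreated late line at 53 h. edgeR called 0 of 223 sequences (0%), DESeq2 0 and limma voom 0, and the unadjusted edgeR p was under 0.05 for 9 of them (4.04%). For the 15 sequences above, this log2 fold change ran from -0.56 to 0.18, and it was 0 where a sequence was listed at 0 in both groups. Its standard error was 0.45 to 0.97 for those not at 0 in both groups, and a p that misses the threshold at this precision does not show equal levels. zma-MIR397b-p5 stood at 44120 ± 22767 CPM with GA3 and 63420 ± 11402 CPM in the untreated late line (SD, n = 3 each; log2 fold change -0.52, SE 0.62). zma-miR159c-3p_L-1R-1 stood at 792 ± 316 and 719 ± 321 CPM (0.15, SE 0.45).

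Over the same early libraries, which makes the comparisons dependent, the values of the untreated late line were set beside these. zma-MIR397b-p5 had a log2 fold change of 4.50 with GA3, 5.03 in the untreated late line at 53 h and 4.66 in the untreated late line at 78 h. For zma-miR408a_L-1 these were 3.12, 3.18 and 4.01, for zma-miR528a-5p 2.83, 2.92 and 3.22, for zma-miR393a-5p_R-1 1.82, 2.08 and 1.75, and for zma-miR159c-3p_L-1R-1 -2.46, -2.61 and -2.35. All 15 sequences passed against the untreated late line at 53 h, where 9.87% of sequences were called, and 14 passed at 78 h, where 8.52% were called. The exception at 78 h was PC-3p-23456_139 (edgeR adjusted p = 0.0546). As the 15 were picked for differing from these same early libraries, their passing again is largely built in. It is no separate support, and the percentages over all sequences are no background for it.

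**Figure D5:**
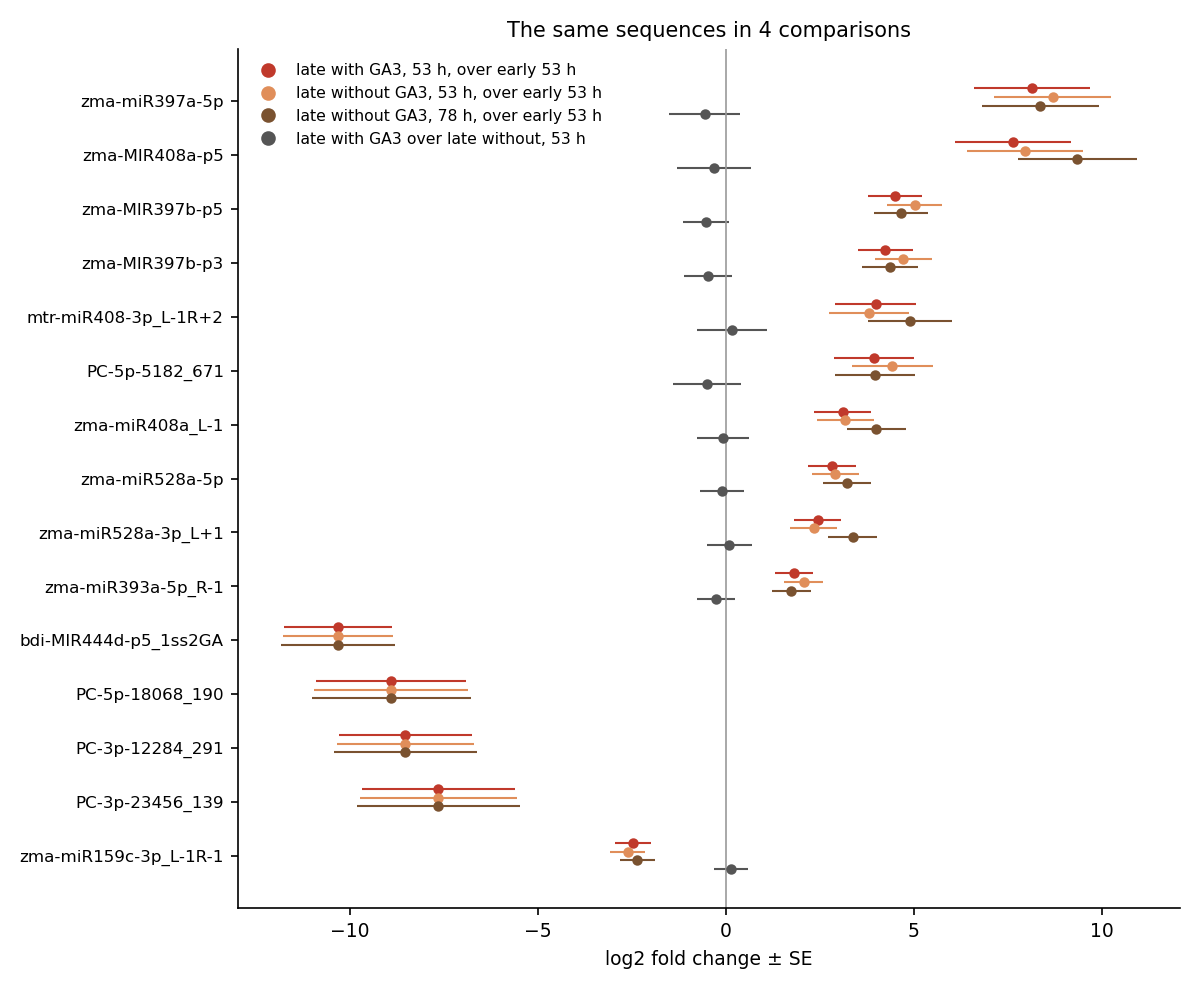
Log2 fold changes with standard errors of the 15 sequences in 4 comparisons: late line with GA3 (red), untreated late line at 53 h (orange) and at 78 h (brown), each over the early line at 53 h, and late line with GA3 over untreated late line (grey, not drawn where both are at 0). The first 3 share the early libraries, and the grey points lie between -0.56 and 0.18.

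A degradome library of the study, placed in no group, records where transcripts were cut. In the authors' deposited table, zma-miR528a-5p had a site of category 0, the clearest class, at position 477 of Zm00001d021850_T001, annotated with electron carrier activity, with 3852 reads (deposited p = 0.00593). The authors' deposited table gives it 2 more category 0 sites (deposited p = 0.0566 each), in Zm00001d009055 (position 140, 25 reads, protein kinase activity) and in Zm00001d020260 (position 34, 11 reads, copper ion binding). In the authors' deposited table, zma-miR408a_L-1 had 3 sites, all of category 0. Those in Zm00001d028486 (position 341, 12 reads, the authors' deposited table) and Zm00001d045680 (position 129, 2 reads) are annotated with electron carrier activity (deposited p = 0.00977 each), and the one with the most reads, in Zm00001d041236 (position 2819, 36 reads, deposited p = 0.0374), with protein kinase activity. zma-MIR397b-p5 had 1 site there, in Zm00001d052324 at position 998 with 5 reads (the authors' deposited table, p = 0.0533), whose annotation includes copper ion binding and lignin catabolic process. For zma-miR393a-5p_R-1 the authors' deposited table gives Zm00001d025268 at position 2200 with 7 reads (p = 0.0264), annotated with the auxin-activated signalling pathway. The authors do not describe these p-values as adjusted. Of the 5198 detected pairs of miRNA and transcript, 270 had a deposited p under 0.05, so such a value alone does not establish a site. As the library belongs to no group, it says nothing of a difference between the late line with GA3 and the early line.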

How the data were processed

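Small RNAs of maize embryos were sequenced as single-end reads of TruSeq libraries, per the labels. The authors' deposited miRNA table gives expected counts, in which reads of a sequence are split between the precursors carrying it, and a signal in further columns that the authors deposited as normalized values. In the degradome table the authors deposited counts of reads per cleavage site, further signal columns, an alignment score, a p-value per site and an other measure, the category. No source used here names the aligner, caller or genome build. Empty lines, 9 in the miRNA table and 5176 in the degradome table, mean that both were held only partly.

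The 782 entries were summed to 536 unique sequences and rounded. Before summing, 38.6% of values on shared entries were whole within 0.01, and after it 88.6%. Sequences of a family with equal values in every library were kept once, which left 529. Arms follow the names, and the deposited hairpin side where a name has none. Without molecular identifiers, depth bounds only the counting error. A 0 was given a floor of 4 counts per library for bounds.

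The main test was edgeR 4.0.16 (R 4.3.3), a robust quasi-likelihood fit with TMM scaling, a filter at a minimum count of 10, a mean per group over all 18 libraries, two-sided, with Benjamini-Hochberg adjustment over the 223 sequences or 48 families tested and a threshold of 0.05. Standard errors were taken as the log2 fold change divided by the root of the F statistic. limma 3.58.1 and DESeq2 1.42.0 served as alternatives, limma with voom and, on the authors' normalized signal, as a trend fit with a pseudocount of 1. Shares were compared by two-sided exact permutation tests, for families of at least 1% of counts and for arms with at least 50 counts in a library. The fits were tested on simulated data. Tables used Python 3.11.15, pandas 2.3.3 and numpy 2.4.6, tests of shares scipy 1.17.1, and plots matplotlib 3.10.9.

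The members, the 11 lists and the tests were chosen with earlier results of these data known. Named are up to 15 called sequences per direction, the 2 most abundant of each list, the 10 most abundant of all and each called family. Other sequences, such as zma-MIR319b-p5, zma-miR398a-3p, gma-miR408a-3p_L-1R+3 and zma-miR393a-3p_L-1, were chosen after their values were seen. Nothing but the labels' word tells whether replicates came from separate cultures of seeds, so p-values measure the spread between these libraries.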

Additional observations from a re-analysis of the deposited data

How the results depend on the processing

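Against 10 sequences higher and 5 lower in the GA3-treated late line, library totals alone gave 5 and 10, no filter on low counts 16 and 5, DESeq2 22 and 8, limma voom 34 and 14, the compared groups alone 15 and 12, and limma-trend on the authors' normalized values 21 and 12. Leaving out a library gave 4 to 18 higher and 2 to 5 lower; 4 were higher without GA3 replicate 2 or 3 or early replicate 1 or 3, and 18 without early replicate 2, and 2 were lower without GA3 replicate 3. Against 4 families higher and 0 lower, 9 were lower with library totals alone, 3 with DESeq2, 2 with limma voom, 3 with the compared groups alone and 2 with limma-trend. Leaving out a library gave 1 to 7 families higher, 1 without early replicate 1 or 3 and 7 without early replicate 2, and 0 to 2 lower. Of the copper and redox list, 4 were higher with library totals alone and 13 with limma voom, and 4 to 10 when a library was left out. The number of families whose arm shares did not overlap was 5 to 11 when a library was left out, against 4; fewer libraries overlap more seldom by construction. By setting, the share of higher calls was 66.7% in the main test and 33.3% with library totals alone. The median log2 fold change of all sequences was 0.26 with TMM, 0.10 with RLE size factors and -0.54 with library totals alone.

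Equal replicate numbers did not pair the libraries: the deviations of like-numbered libraries correlated at 0.0462, 0.0359 and -0.229. A fit with the replicate block called 10 higher and 3 lower and 5 families higher.

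Of the 15 called sequences, 10 were shared with the calls under library totals alone, 15 with DESeq2 and 15 with limma voom, and none changed direction. They kept their call in 216 of 265 alternative fits, and the 4 called families in 61 of 68. Those at 0 in every library of a compared group could not change direction: zma-miR397a-5p, zma-MIR408a-p5, bdi-MIR444d-p5_1ss2GA, PC-5p-18068_190, PC-3p-12284_291 and PC-3p-23456_139. Their part in these counts is no separate support. Between GA3 and untreated late line 0 sequences were called with RLE, library totals alone, no filter, DESeq2, limma voom, the compared groups alone, the replicate block or a library left out; the other alternatives were not run for it. Signs turned for 8 sequences that were not called. With library totals alone the log2 fold changes were -0.083 for zma-miR319a-3p_R+1, -0.74 for zma-miR444a, -0.57 for osa-miR444f, -0.63 for zma-miR168b-3p_R+1, -0.84 for peu-MIR2916-p5_1ss5AG and -0.54 for gma-miR6300. With limma-trend they were -0.14 for zma-miR444a, -0.10 for zma-miR168b-3p_R+1, -0.48 for peu-MIR2916-p5_1ss5AG and -0.18 for gma-miR6300. Without the filter they were 0.12 for zma-miR160a-5p and 0.20 for zma-miR169i-5p, and with 1 entry per sequence 0.026 for zma-miR160a-5p. For zma-miR444a they were -0.10 with RLE, -0.10 with DESeq2, -0.046 with the compared groups alone, -0.070 at a minimum count of 50 and -0.062 in thinned libraries. For peu-MIR2916-p5_1ss5AG they were -0.11 with RLE, -0.11 with DESeq2, -0.16 with limma voom, -0.095 with the compared groups alone, -0.25 with the replicate block, -0.13 at a minimum count of 50 and -0.11 in thinned libraries. When a library was left out, values ran from -0.25 to 0.094 for zma-miR160a-5p, from -0.13 to 0.35 for zma-miR444a, from -1.83 to 0.39 for zma-miR169i-5p, from -0.083 to 0.34 for zma-miR168b-3p_R+1, from -0.96 to 0.45 for peu-MIR2916-p5_1ss5AG and from -0.52 to 0.59 for gma-miR6300. The cause of these changes was not tested. Depth limits low sequences: 4 counts stood for 12.6 CPM on average in the GA3 libraries and 27.1 CPM in the early ones.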

Other observations

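Several abundant sequences outside the called families are given here as values. zma-miR169o-5p_R-1, of the family that targets NF-YA factors, stood at 5165, 6924 and 9717 CPM in the late line with GA3, against 2284, 3484 and 668 CPM in the early line. The groups did not overlap, and the log2 fold change of 1.76 (SE 0.59) did not pass in edgeR (adjusted p = 0.0859), while DESeq2 and limma voom called it higher (adjusted p = 0.0245 and 0.0215). zma-miR169i-5p, whose seed AGCCAAG it shares, stood at 729 ± 913 CPM with GA3 and 774 ± 477 CPM for the early line (SD, n = 3 each). Both strands of miR168, which targets ARGONAUTE1, were measured: zma-miR168a-5p stood at 1919 ± 200 CPM with GA3 and 1090 ± 408 CPM in the early line, and zma-miR168b-3p_R+1 at 1643 ± 622 and 1410 ± 68.2 CPM. Neither passed the edgeR test.

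zma-miR156a-5p, which targets SPL factors, stood at 2429 ± 805 CPM with GA3 and 3821 ± 2009 CPM in the early line, and zma-miR156e-3p_L+1_2ss14CA22TC at 508 ± 413 and 1474 ± 564 CPM (SD, n = 3 each; edgeR adjusted p = 0.626 and 0.254). osa-miR444f shares the seed GCAGTTG with zma-miR444a and stood at 15462 ± 2877 CPM with GA3 and 12594 ± 1791 CPM in the early line. Among sequences named after other plants, peu-MIR2916-p5_1ss5AG stood at 5331 ± 3805 and 5332 ± 1164 CPM, and gma-miR6300 at 5755 ± 4767 and 4598 ± 1786 CPM, with GA3 and in the early line in that order. osa-MIR2118e-p3_2ss13TA19CT had 32, 156 and 42 counts with GA3 and 138, 82 and 69 counts in the early line (edgeR adjusted p = 0.246).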
